A study of Mus musculus with 2 samples.

Results

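The cytosolic ribosomal protein genes were examined in immune cells of mouse brown adipose tissue. Members were taken by symbol from the 32285 genes counted: symbols that begin with Rpl or Rps and a digit, plus Rplp0, Rplp1, Rplp2 and Rpsa. The pattern matched 101 symbols. After removal of 5 symbols ending in -ps with a number (annotated pseudogenes) and 10 Rps6k kinases and their relatives, 86 members remained, 52 of the large subunit and 34 named for the small subunit. One of the 34, Rps19bp1, encodes a protein that binds Rps19 and is not itself a ribosomal protein. The members lie on 19 chromosomes, and 4 are X-linked.

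The study sorted live (Dapi-) CD45+ leukocytes from brown adipose tissue by flow cytometry and sequenced their RNA by droplet single-cell sequencing (10x, 3′ chemistry, version 3.1). There was 1 control library, from male AdipoQ-CreERT2 ATGLfl/fl mice of 16 weeks on the C57Bl/6 background given vehicle (sunflower oil and ethanol), and 1 Adipo Δ/Δ library, from mice of the same genotype, sex, age and strain given tamoxifen. The age is that of the sample labels. The study's figure legends give a younger age for the mice of its single-cell sequencing, and the difference could not be settled here. ATGL, encoded by Pnpla2, is the first lipase in the breakdown of stored triglyceride. The Cre is driven by the adiponectin promoter, which is active in adipocytes, so the sorted leukocytes are not the cells in which the gene was deleted, and both libraries carry the same alleles. Pnpla2 stood at 37.1 counts per 1000000 UMIs (CPM; a UMI marks one captured mRNA molecule) in control leukocytes, against 42.2 in Adipo Δ/Δ, which checks nothing about deletion in adipocytes. The sources used here do not say how many mice were pooled in each library. With 1 library per condition there is no replicate error, and tamoxifen, the deletion and the library itself cannot be told apart.

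Ribosomal proteins assemble with ribosomal RNA into a large subunit, which forms peptide bonds, and a small subunit, which decodes the mRNA. Their mRNAs are among the most abundant in most cells, and many begin with a C followed by a run of pyrimidines, the 5′ TOP motif, through which mTOR signalling adjusts their translation together. Resting lymphocytes are small cells with little cytoplasm, and mature neutrophils are short-lived cells that make most of their granule proteins before they leave the marrow.

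The start of the transcript is shown here for 10 members to which the results below return, because it is the sequence feature that members are best known to share. Each line gives 30 bases of the RefSeq reference sequence (build GRCm38.p6), 5′ to 3′ on the strand of the gene, from 10 bases before the annotated start. Capitals mark a pyrimidine run, defined as a C within 5 bases of the annotated start followed by at least 4 further C or T bases; lower case throughout means that no such run was found in the window.
Rpl12 (chr2:32961702-32961731, plus strand): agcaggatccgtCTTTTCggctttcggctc
Rps9 (chr7:3704031-3704060, plus strand): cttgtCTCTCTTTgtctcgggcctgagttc
Rps18 (chr17:33955646-33955675, minus strand): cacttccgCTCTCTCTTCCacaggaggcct
Rps27 (chr3:90213629-90213658, minus strand): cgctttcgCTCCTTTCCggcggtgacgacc
Rps27l (chr9:66946076-66946105, plus strand): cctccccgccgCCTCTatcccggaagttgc
Rpl41 (chr10:128549149-128549178, minus strand): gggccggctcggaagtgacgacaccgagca
Rpl36al (chr12:69184048-69184077, minus strand): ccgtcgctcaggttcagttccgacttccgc
Rpl7l1 (chr17:46782637-46782666, minus strand): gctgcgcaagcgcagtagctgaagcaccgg
Rps19bp1 (chr15:80264287-80264316, minus strand): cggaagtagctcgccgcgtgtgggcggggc
Rpl3l (chr17:24727816-24727845, plus strand): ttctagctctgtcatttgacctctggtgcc

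A pyrimidine run was found in 30 of the 66 members with an entry in the RefSeq table (45.5%) and in 5718 of 27025 genes of that table (21.2%). Rps9 and Rps18, which stood at opposite ends among the members in neutrophil-like cells below, both carried a long run, of 8 and 11 bases. Of the 6 members that were scarce in T cell-like cells relative to the others, Rps19bp1, Rpl7l1, Rpl36al and Rpl10 had none. Rps27l had the shortest run that the definition allows, and Rpl7a had a run. Most members with an entry had no run, so its absence was not particular to the scarce ones. Annotated starts can be several bases from the true cap, so the absence of a run says only that these letters are not in the window.

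Cells were kept if they had at least 200 detected genes and at most 10% of their unique molecular identifiers (UMIs) on mitochondrial genes. This left 2279 of 2597 control barcodes and 2016 of 2381 Adipo Δ/Δ barcodes, with a median of 3678 and 3942 UMIs per cell. Ptprc, which encodes CD45, was detected in 80.4% of kept cells in each library. There were 4 barcode sequences present in both libraries, all among the kept cells. Cells were clustered without the member genes, so that no class was drawn from the values described here, and clusters were named from fixed marker genes. A cluster that enters the comparisons under no cell type name is called the Top2a-led cluster: Top2a was detected in 25.7% and Mki67 in 22.5% of its 253 cells, and Cd3e in 66.4%. Clusters with no class held a further 141 control and 286 Adipo Δ/Δ cells and entered no class comparison. All intervals below are 95% intervals for counting error alone and cover neither differences between mice nor between libraries. Since PCR copies collapse into the same UMI and reads come from the 3′ end, CPM needs no correction for length between genes. Shared sequence still limits such comparisons, and no correction was made for it. Of the 86 members, 42 shared at least 50% of the 55-base words in their last 300 bases with another transcript. For 16 members, some words were shared with another gene counted here.

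Members supplied 22.3% of all UMIs in control leukocytes (interval 22.27 to 22.32) and 20.7% in Adipo Δ/Δ leukocytes (20.63 to 20.68). Between single cells the share ranged from 0.153% to 63.0% among control cells and from 1.22% to 61.6% among Adipo Δ/Δ cells. In control cells the quartiles were 12.1% and 30.4% around a median of 21.1%, and in Adipo Δ/Δ cells 11.4% and 25.5% around a median of 17.9%. The share therefore varied far more between cells within a library than between the libraries.

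T cell-like cells, named from genes such as Cd3e and Trac, spent the largest share of their UMIs on ribosomal proteins: 43.2% in 265 control cells and 44.4% in 125 Adipo Δ/Δ cells. B cell-like cells followed at 32.8% (261 cells) and 32.6% (95 cells). Dendritic cell-like cells had 29.6% (85 cells) and 27.3% (109 cells). T and B cell-like cells thus headed the order in both libraries. The T cell-like class was drawn narrowly, as the cluster led by Dapl1, Lef1, Ccr7, Tcf7 and Cd8b1, and does not stand for all T cells. The Top2a-led cluster, where Cd3e was detected in most cells, had 28.1% (105 cells) and 24.4% (148 cells). With classes from all genes the T cell-like share was 39.7% (391 cells) and 36.4% (273 cells).

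NK cell-like cells, which are lymphocytes too, ranked with the monocytes and not with T and B cells, at 19.0% (208 cells) and 20.0% (175 cells). Ly6C high monocyte-like cells had 22.4% (318 cells) and 22.1% (151 cells), and Ly6C low monocyte-like cells 18.4% (447 cells) and 19.2% (338 cells). In control cells the T to NK ratio was 2.27, and in Adipo Δ/Δ cells 2.22. Both ratios refer to the narrowly drawn T cell-like class. The Top2a-led cluster lay nearer to NK cell-like than to T cell-like cells. The order from T to B, dendritic, Ly6C high, NK, Ly6C low, macrophage and neutrophil was the same in both libraries. It was not the same under every processing choice: with a mitochondrial limit of 2% and new clusters, B cell-like cells (33.8%) stood above T cell-like cells (30.1%) in the Adipo Δ/Δ library, while neutrophil-like cells were lowest under every setting tried.

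Macrophage-like cells lay below the monocytes, at 13.7% (122 cells) and 15.8% (408 cells). Plasma cell-like cells, whose mRNA is dominated by immunoglobulin, had 9.22% in 13 control cells and 7.35% in 8 Adipo Δ/Δ cells. Neutrophil-like cells had the lowest share, 3.12% in 314 control cells and 4.87% in 173 Adipo Δ/Δ cells. The share in T cell-like cells was 13.8 times that in neutrophil-like cells in the control library (13.7 to 14.0) and 9.12 times in the Adipo Δ/Δ library (9.0 to 9.2). Under the other settings that ratio ran from 12.1 to 14.5 for control cells and from 7.46 to 12.2 for Adipo Δ/Δ cells.

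**Figure D1:**
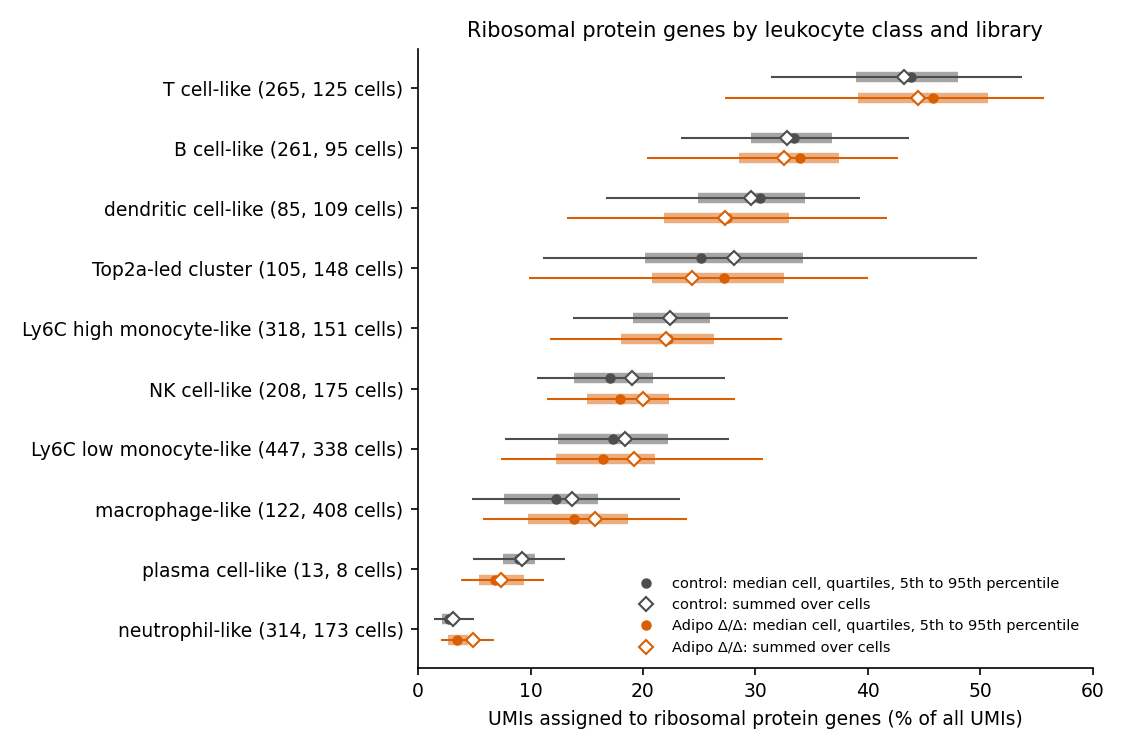
Share of each cell's UMIs that fall on the 86 cytosolic ribosomal protein genes (percent), by class and library; the dot is the median cell, the thick bar the quartiles, the thin line the 5th to 95th percentile and the diamond the share of summed UMIs. T cell-like cells stand highest, at 43.2% and 44.4% of summed UMIs, and neutrophil-like cells lowest, at 3.12% and 4.87%.

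The distance between T cell-like and neutrophil-like cells lay in the members and not in the number of other molecules captured. A T cell-like cell held on average 1921 (control) and 2568 (Adipo Δ/Δ) member UMIs, against 106 and 149 in a neutrophil-like cell. All other UMIs together averaged 2528 and 3213 per T cell-like cell and 3289 and 2901 per neutrophil-like cell. The median T cell-like cell had UMIs from 79 and 80 of the 86 members, and the median neutrophil-like cell from 39 and 40. The single highest neutrophil-like cell reached 22.0% among control and 26.7% among Adipo Δ/Δ cells, and the lowest T cell-like cell stood at 3.69% and 5.11%, so single cells of the classes overlapped.

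The neutrophil markers themselves, which include S100a8 and S100a9, made up 258257 CPM of control and 181340 CPM of Adipo Δ/Δ neutrophil-like UMIs. Neutrophil-like cells carried T cell markers at 30.0 and 49.3 CPM, where T cell-like cells had 4652 and 4834. In the control library 4 neutrophil-like cells, and in the Adipo Δ/Δ library 3, had a member share of 10% or more. Their H2-Ab1, an MHC class II gene of antigen-presenting cells, was at 3432 and 1265 CPM against 18.2 and 116 in the other neutrophil-like cells, and without them the neutrophil share was 2.81% and 3.73%. These barcodes had a median of 6205 and 15986 UMIs, against 2968.5 and 2720 over all neutrophil-like cells. S100a8 stood at 59068 and 9219 CPM in them, against 117384 and 85139 in the other neutrophil-like cells. Whether these barcodes hold more than 1 cell was not tested directly. Erythrocyte genes made up 14508 CPM of control B cell-like UMIs and 61.9 CPM of Adipo Δ/Δ B cell-like UMIs, and their part in the B cell-like share was not tested.

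The spread between cells of one class was wider than counting error. In control T cell-like cells the share had a standard deviation of 7.60 percentage points, where counting alone would give 0.986. In control neutrophil-like cells the values were 1.97 and 0.356. In NK cell-like cells the share was higher in cells with more UMIs, with a Spearman correlation of 0.61 across 208 control cells and 0.56 across 175 Adipo Δ/Δ cells; both measures have the UMI total of the cell in common.

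Among members with at least 100 UMIs over both libraries, the highest level was 891 times the lowest, in counts not corrected for shared sequence. Of all members, 71 of 86 were above 1000 CPM over all kept cells, 80 were above 100 CPM, and the median was 2518 CPM. The 10 most abundant members gave 23.5% of all member UMIs. The 5 highest were Rps29 (8140 CPM in control, 6760 in Adipo Δ/Δ), Rps24 (6485 and 5577), Rpl37a (6076 and 5500), Rpl41 (5444 and 5544) and Rps28 (4965 and 4313). Rps29 and Rpl37a are small zinc-binding proteins, and Rpl41 is the smallest ribosomal protein. The lowest of the members that had at least 100 UMIs in total were Rpl3l (11.9 and 4.95 CPM), Rps19bp1 (30.2 and 34.9), Rpl10 (50.03 and 40.7), Rpl7l1 (49.1 and 64.8) and Rpl9 (163 and 322). Rpl10 and Rpl9 encode core proteins of every large subunit, and their deposited levels are taken up with their near-identical copies below. No member was at 0 in both libraries.

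Large and small subunit genes kept similar proportions from class to class. The large subunit genes gave between 51.2% and 55.5% of member UMIs in the control classes, with 52.9% to 57.5% in those of Adipo Δ/Δ. The genes of the acidic stalk, which recruits elongation factors to the large subunit, followed the set. Rplp1 stood at 11157 and 11543 CPM in T cell-like cells and at 449 and 819 in neutrophil-like cells, Rplp0 at 5426 and 6424 against 290 and 546, and Rplp2 at 5508 and 6224 against 362 and 626.

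Each class was next set against all other classified cells of the same library, gene by gene, in CPM. Of the 86 members, 83 had at least 100 UMIs in each library, and the 3 below that limit were Rpl3l, Rpl39l and Rpl10l. In T cell-like cells 74 of 83 members were at least 1.5-fold higher in both libraries, where 6.90% of all 7452 genes with that many UMIs were. Rps27l and Rpl7l1 were the 2 members that were lower, with 34.7% of all genes lower. The remaining 7, among them Rpl10, Rpl36al, Rpl41, Rpl7a, Rps19bp1 and Rps9 (listed after their values were seen), did not pass 1.5-fold in both libraries. The median log2 ratio of the members in T cell-like cells was 1.16 (control) and 1.20 (Adipo Δ/Δ), against −0.42 and −0.46 over all genes. CPM divides by all UMIs, members included, so a larger member share by itself lowers the CPM of every other gene. This limit holds for the values over all genes and for the gene lists below. Its size was not tested.

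In neutrophil-like cells 82 of 83 members were lower and 0 were higher, where 50.7% and 15.1% of all genes were. The exception was Rps9. The median log2 ratio of the members was −3.27 (control) and −2.32 (Adipo Δ/Δ), against −1.02 and −0.80 over all genes. In macrophage-like cells 37 of 83 were lower (16.8% of all genes) and 0 higher (9.50%), with a median of −0.76 and −0.55 against −0.11 and −0.11.

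NK cell-like cells had 1 lower member, Rps19 (16.8% of all genes), and 0 higher (26.2%). Ly6C high monocyte-like cells had 1 lower, Rpl12 (15.0%), and 0 higher (8.82%). Ly6C low monocyte-like cells had 4 lower, Rpl12, Rpl14, Rpl22l1 and Rps2 (14.3%), and 0 higher (9.69%). The Top2a-led cluster had 1 higher, Rpl22l1 (9.58%), and 0 lower (17.6%). Rps19, Rpl14, Rpl22l1 and Rps2 are given for these counts after their values were seen. Outside T cell-like, neutrophil-like and macrophage-like cells, then, few single members departed from the other cells by 1.5-fold among the classes with at least 100 cells in each library.

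To find members that deviate from the other members, the share of each gene in all member UMIs of a class was divided by its share in the other classified cells of that library. This measure does not move when all members rise or fall together. Most members kept their place: over 83 members and 7 classes with at least 100 cells in each library (581 pairs), the median absolute log2 ratio was 0.10, and 69.9% of pairs were within a fold of 25% in both libraries. In 36 pairs, 9 up and 27 down, a member deviated by 1.5-fold or more the same way in both libraries, and 29 of 83 members did so in at least 1 class. In CPM, which keeps the joint movement, 82 of 83 members passed 1.5-fold the same way in both libraries in at least 1 class, where 90.0% of all genes did. The spread of the log2 ratios across members was widest in neutrophil-like cells, with a standard deviation of 0.84 and 0.59, and in T cell-like cells, with 0.50 and 0.58.

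**Figure D2:**
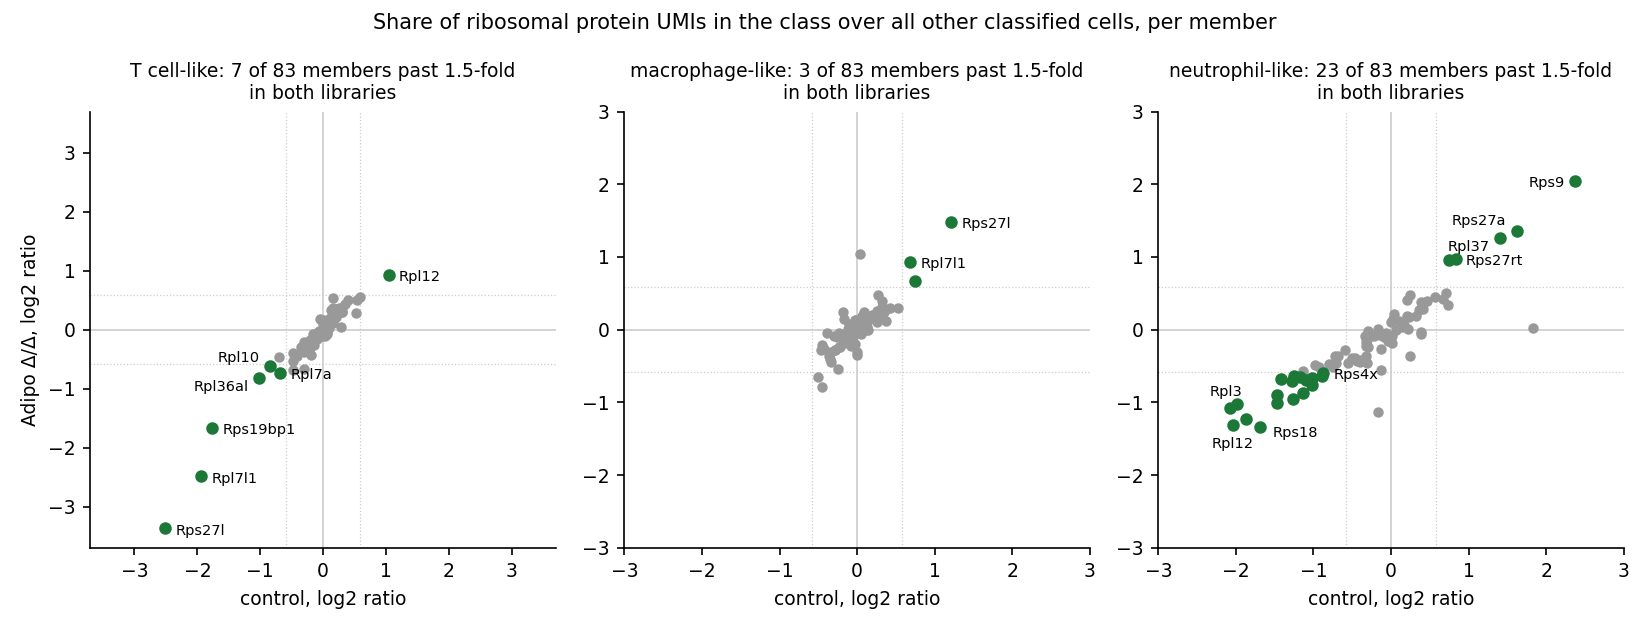
Log2 ratio of each member's share of member UMIs in a class to its share in all other classified cells, control on the horizontal and Adipo Δ/Δ on the vertical axis, in T cell-like, macrophage-like and neutrophil-like cells. Green points passed 1.5-fold (dotted lines) the same way in both libraries. Rps9 in neutrophil-like cells lies farthest on the high side, with ratios of 5.18 and 4.12, and Rps27l in T cell-like cells farthest on the low side, with ratios of 0.17 and 0.10.

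Neutrophil-like cells held 23 of the 36 pairs. The ratios in these cells include the few barcodes with a member share of 10% or more. Those barcodes held 4057 of 33311 control and 7673 of 25702 Adipo Δ/Δ member UMIs of the class. Their part in the ratios of single members was not tested. Rps9 (ENSMUSG00000006333, chr7:3703993-3706897, plus strand), a small subunit protein at the channel where mRNA enters, took a share of member UMIs 5.18 times that in other cells in control (4.98 to 5.39) and 4.12 times in Adipo Δ/Δ (3.91 to 4.33). Its level in neutrophil-like cells was 2583 CPM (2754 UMIs) and 2963 CPM (1563 UMIs), where macrophage-like cells had 2430 and 2403, NK cell-like cells 2086 and 2322 and T cell-like cells 4910 and 5112. Rps9 was thus at macrophage and NK level in cells where the members as a set were far lower. In the Adipo Δ/Δ library, Rps27 (209 against 228 CPM) and Rps27rt (203 against 236 CPM) were near their macrophage levels too. In the control library they were lower, at 68.5 against 133 and 214 against 378 CPM. It made up 8.27% of all member UMIs in control neutrophil-like cells and 6.08% in Adipo Δ/Δ.

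The other members that took a larger share in neutrophil-like cells were Rps27a, with ratios of 3.08 and 2.55, Rpl37 with 2.65 and 2.39, Rps27rt with 1.78 and 1.96, and Rps27 with 1.69 and 1.94. Rps27a is made as a fusion with ubiquitin, which is cut off to leave the small subunit protein. Rps27a stood at 1737 and 2258 CPM in these cells and Rpl37 at 1512 and 1985. Rps29, the most abundant member over all kept cells, had 1206 and 1604 CPM. In both libraries the order of levels in neutrophil-like cells began with Rps9, Rps27a, Rpl37, Rpl41 and Rps29.

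At the other end, Rps18 (ENSMUSG00000008668, chr17:33951999-33956001, minus strand), of the small subunit's head, took 0.31 and 0.40 of its share in other cells. It stood at 116 and 224 CPM in neutrophil-like cells and at 5838 and 6316 CPM in T cell-like cells. Rpl12 (ENSMUSG00000038900, chr2:32961559-32965345, plus strand), which sits at the base of the stalk, had ratios of 0.24 and 0.40, with 72.2 and 197 CPM. Rpl10a had ratios of 0.27 and 0.43, Rpl3 0.24 and 0.47, Rpl36al 0.25 and 0.49, Rpsa 0.36 and 0.49, Rpl32 0.41 and 0.52 and Rps20 0.36 and 0.54. Rpl3 lies close to the site of peptide bond formation, Rpl10a forms the mobile stalk beside the exit site for tRNA, and Rpsa is the small subunit protein once described as the laminin receptor. In neutrophil-like cells, then, Rps9 exceeded Rps18 in CPM in both libraries, while in T cell-like cells Rps18 exceeded Rps9.

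In T cell-like cells the members were higher as a set, and 7 members departed from it. Rpl12 took 2.06 times its share in other cells in control and 1.91 times in Adipo Δ/Δ, at 6732 and 7480 CPM. It was also the member that fell short in monocytes, with ratios of 0.53 and 0.60 in Ly6C high and of 0.46 and 0.57 in Ly6C low monocyte-like cells. The other cells in these ratios include the T cell-like cells. Those held 7938 of 22717 control and 5405 of 23590 Adipo Δ/Δ Rpl12 UMIs of all kept cells. The monocyte ratios are thus not independent of the T cell-like excess, and ratios without T cell-like cells were not tested. Rpl12 therefore stood above the other members in T cell-like cells and below them in both monocyte classes and in neutrophil-like cells.

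The other 6 were low in T cell-like cells. Rps27l (ENSMUSG00000036781, chr9:66946086-66949516, plus strand), a p53-induced paralog of Rps27, had ratios of 0.17 and 0.10. Rpl7l1, a relative of Rpl7 linked to ribosome assembly, had 0.26 and 0.18, and Rps19bp1 had 0.29 and 0.31. Rpl36al had 0.50 and 0.56, Rpl7a 0.62 and 0.60 and Rpl10 0.56 and 0.65. Of these 6, Rpl7a and Rpl10 encode core proteins of the large subunit and Rpl36al a near-identical relative of Rpl36a. Paralogs were not all low in these cells: Rpl22l1 stood at 1191 and 1298 CPM there, against 527 and 513 over all kept cells.

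Macrophage-like cells had 3 members above the rest, among them Rps27l and Rpl7l1. Rps27l took 2.32 and 2.80 times its share in other cells, at 338 and 543 CPM, against 103 and 88.6 CPM in T cell-like cells. Rpl7l1 had 1.61 and 1.91, but on 25 UMIs in the control library. Rps27l and Rpl7l1 thus deviated upward in macrophage-like and downward in T cell-like cells. The upward ratios are relative to the other members, which were lower as a set in macrophage-like cells. In level neither gene was particular to that class. Rps27l had 373 and 543 CPM in dendritic cell-like, 342 and 397 in Ly6C high monocyte-like and 274 and 237 in NK cell-like cells. Rpl7l1 had 47.5 and 75.4 CPM in macrophage-like, 49.9 and 78.2 in dendritic cell-like and 29.7 and 27.7 in T cell-like cells. In NK cell-like cells Rps19, the gene first linked to Diamond-Blackfan anaemia, was the single deviating member, with ratios of 0.60 and 0.65, and in the Top2a-led cluster there were 0.

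**Figure D3:**
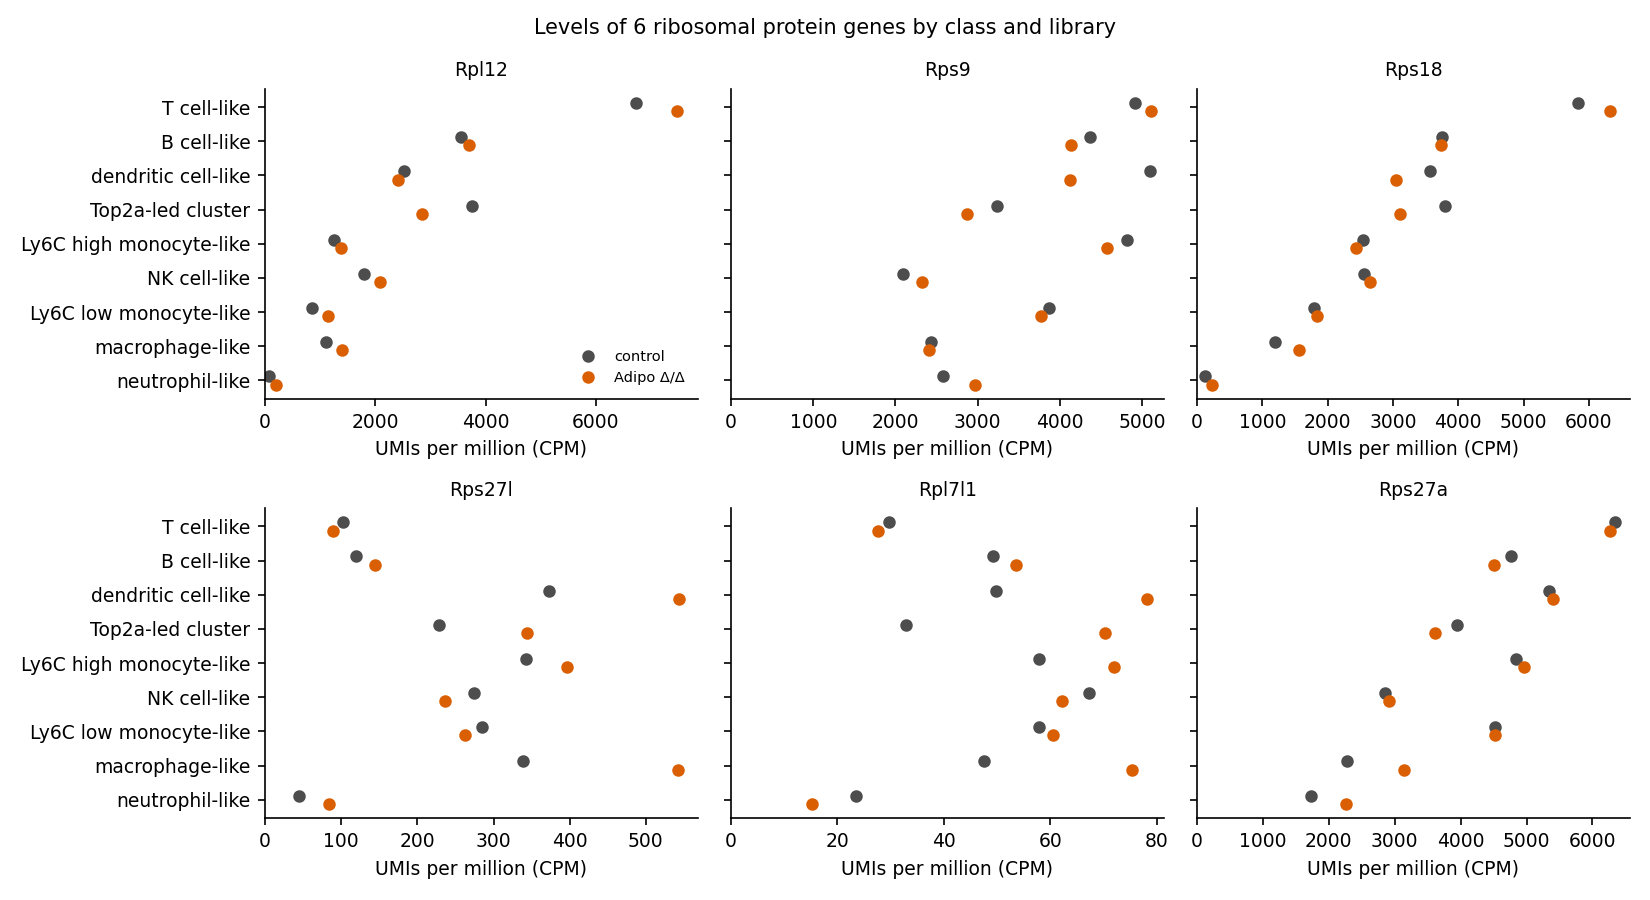
CPM of Rpl12, Rps9, Rps18, Rps27l, Rpl7l1 and Rps27a by class in each library (grey for control, orange for Adipo Δ/Δ); each panel has its own axis from 0. Rps9 in neutrophil-like cells (2583 and 2963 CPM) lies near its level in macrophage-like cells, while Rps18 drops to 116 and 224 CPM.

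Paralogs gave a further view of the members that differ between classes. Rps27l made up 71.8% and 70.5% of Rps27 and Rps27l UMIs together in macrophage-like cells and 14.2% and 6.13% in T cell-like cells. The reads of Rps27 are divided with Rps27rt differently in each library, as described below. This share can therefore be compared between classes within a library and not between libraries. Its size depends on leaving out Rps27rt, which had 199 and 824 UMIs in macrophage-like cells. There Rps27l had 178 and 1894 UMIs and Rps27 had 70 and 794. Rpl36al made up 57.9% and 51.7% of the Rpl36a and Rpl36al sum in macrophage-like cells, 71.1% and 58.3% in Ly6C low monocyte-like cells and 35.9% and 30.7% in T cell-like cells. In plasma cell-like cells, with 13 and 8 cells, Rpl36al took 3.25 and 3.06 times its share in other cells, a value chosen after it was seen. For both Rps27l and Rpl36al the macrophage share was above the T cell share in both libraries.

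Rpl22l1, the paralog of Rpl22, was the minor partner in every class: it made up 22.3% and 23.3% of the sum over all kept cells, 31.2% and 30.4% in NK cell-like, 26.7% and 29.5% in T cell-like, 17.0% and 21.5% in macrophage-like and 12.7% and 7.75% in plasma cell-like cells. Rpl7l1 made up 2.90% and 3.91% of its sum with Rpl7. Rpl3l, the form of Rpl3 known from heart and skeletal muscle, had 128 control and 56 Adipo Δ/Δ UMIs. Of these, 71 and 39 were in Ly6C low monocyte-like and 39 and 7 in neutrophil-like cells, where they made up 42.4% and 7.0% of Rpl3 and Rpl3l together. T cell-like cells had 0 Rpl3l UMIs in either library, and a count of 0 allows up to 3. Rpl39l and Rpl10l, known from male germ cells, were close to 0: Rpl39l had 5 and 16 UMIs and Rpl10l 3 and 6.

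The comparison the study was built for, Adipo Δ/Δ against control, was made within each class. In T cell-like cells the members' share of UMIs was 1.03 times the control share, in B cell-like cells 0.991, in Ly6C high monocyte-like cells 0.986, in Ly6C low monocyte-like cells 1.04 and in NK cell-like cells 1.05. Dendritic cell-like cells had a ratio of 0.922, the Top2a-led cluster 0.868 and plasma cell-like cells 0.797. In the Top2a-led cluster the ratio of the median cells was 1.08, on the other side of 1. The side of 1 was not stable for all of these. For T cell-like cells the ratio was 0.793 with a mitochondrial limit of 2%, 0.917 with classes from all genes and 0.913 at resolution 2.0, and for Ly6C low monocyte-like cells it was 0.974 without integration and 0.987 as a mean over cells. B cell-like cells ran from 0.981 to 1.03 and Ly6C high monocyte-like cells from 0.972 to 1.03 over the settings, while NK cell-like cells stayed above 1 (1.04 to 1.14) and dendritic cell-like cells below it (0.912 to 0.947). With 1 library per condition none of these can be set against the spread between mice.

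Macrophage-like cells had 1.15 times the control share (1.14 to 1.16), 15.8% against 13.7%. The direction of this ratio depended on which cells were counted as macrophage-like: with a mitochondrial limit of 5% and new clusters it was 0.914, and with a limit of 2% it was 0.974. It differed between the macrophage clusters too. The cluster led by Lyz1 and Retnla had 14.1% and 14.4%, the M2-like cluster with Folr2 and Lyve1 had 13.4% and 14.6%, and the lipid-associated cluster with Gpnmb, Cd63 and Fabp5 had 12.3% in 13 control cells and 18.2% in 95 Adipo Δ/Δ cells. The median cell of the lipid-associated cluster had 1348 (control) and 11722 (Adipo Δ/Δ) UMIs. Without that cluster the macrophage ratio was 1.05.

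Neutrophil-like cells had 1.56 times the control share (1.53 to 1.58), and the ratio of the median cells, 3.49% against 2.76%, was 1.26. Without barcodes that carried markers of another class the ratio was 1.22, and with neutrophil markers left out of the denominator it was 1.41. The direction was the same in each of these, and the size was not. Neutrophil-like cells of the libraries also differed in granule genes of immature neutrophils (chosen after their values were seen): in cells with a member share under 10%, Camp stood at 3408 CPM in control against 4.14 in Adipo Δ/Δ, Ngp at 3375 against 55.9 and Ltf at 888 against 0. Their part in the ratio was not tested.

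Gene by gene, in macrophage-like cells 9 of 83 members were at least 1.5-fold higher in the Adipo Δ/Δ library, where 17.8% of all 4593 genes tested were, and 1 was lower, where 5.75% of all genes were. The members' share past the threshold was thus below that of all genes on both sides. Their median log2 ratio was 0.24, against 0.15 over all genes. The highest were Rpl9 at 2.58-fold (1.88 to 3.63), on 41 control UMIs, Rps19bp1 at 2.28-fold (1.20 to 4.84), Rpl35 at 1.76-fold, Rps27 at 1.71-fold and Rps27l at 1.60-fold (1.37 to 1.88). The lower side included Rps27rt at 0.62-fold (0.53 to 0.73), Rpl10 at 0.92-fold and Rps29 at 0.95-fold. Without the lipid-associated cluster 3 members passed 1.5-fold in either direction, and with a mitochondrial limit of 5% or 2% and new clusters 4 did.

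In the other classes few members passed 1.5-fold, and they were largely the same ones (named after their values were seen). In T cell-like cells Rpl9 and Rps27 were higher (2 of 81 members, where 4.88% of all genes were) and Rps27rt was lower (1.61% of all genes). The same 3 genes passed in the same directions in B cell-like (7.45% higher and 3.85% lower over all genes), dendritic cell-like (8.18% and 2.45%), Ly6C high monocyte-like (4.26% and 1.75%) and NK cell-like cells (3.17% and 0.980%). In Ly6C low monocyte-like cells Rpl36a was higher as well (5.68% and 1.88% over all genes), and in the Top2a-led cluster Rpl9 and Rps27l were higher and Rps27rt was lower (19.0% and 4.11%). In plasma cell-like cells 0 of 75 were higher (14.0%) and 6 lower (18.8%). In neutrophil-like cells 52 of 76 were higher (17.9% of all genes) and 0 lower (2.56%), with a median log2 ratio of 0.76 against 0.26 over all genes. That count rested on a few barcodes. Without the 4 control and 3 Adipo Δ/Δ cells at a member share of 10% or more it was 18 of 71 (15.0% of all genes), and without barcodes that carried markers of another class it was 5 of 71 (14.4%), with a median of 0.30 against 0.26.

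**Figure D4:**
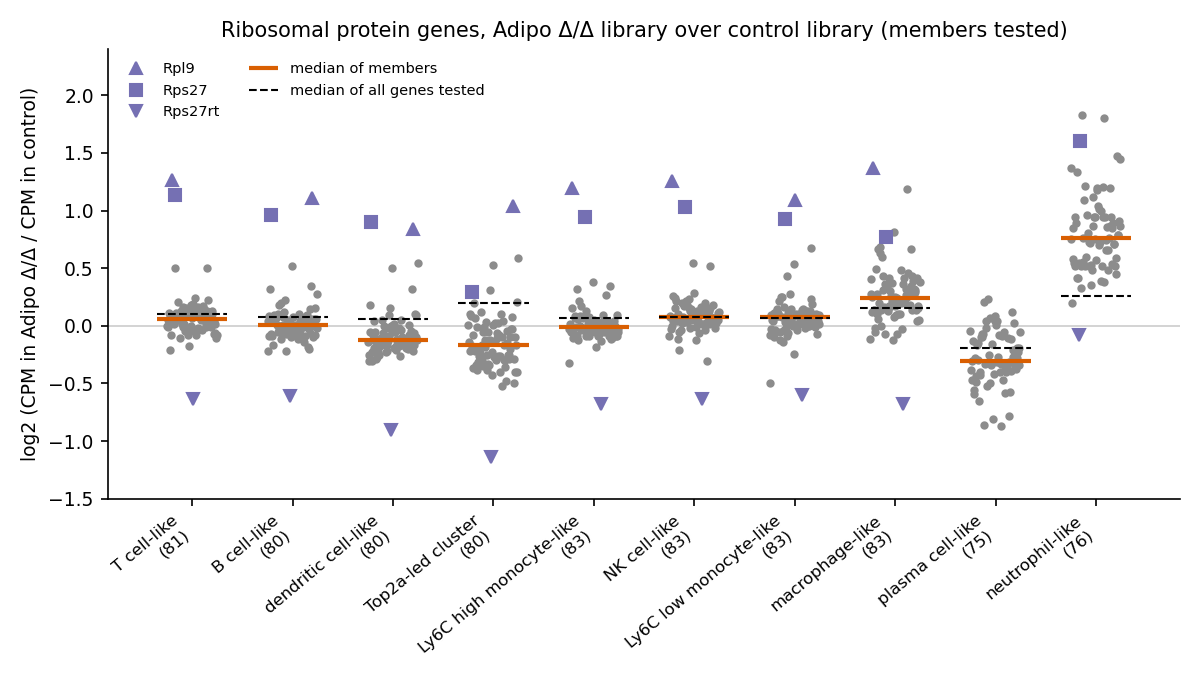
Log2 ratio of CPM, Adipo Δ/Δ over control, for each member within each class (points), with the median of members (orange) and the median of all genes tested (dashes). In macrophage-like cells the median of members was 0.24 against 0.15 over all genes, and in neutrophil-like cells 0.76 against 0.26, where the members' median was 0.30 without barcodes that carried markers of another class.

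Rpl9, Rps27, Rpl35 and Rpl36a share long stretches of their 3′ ends with another deposited gene, so the assignment of a read to either one is uncertain. Rps27rt is annotated as a retrogene of Rps27, and its transcript matches that of Rps27 at 341 of 341 aligned bases. Rps27rt (ENSMUSG00000050621, chr9:114982366-114982739, minus strand) took 74.6% of the Rps27 and Rps27rt UMIs in the control library and 48.9% in the Adipo Δ/Δ library. Across the 9 classes other than plasma cell-like cells its share ran from 72.5% to 75.7% in control cells and from 46.4% to 51.1% in Adipo Δ/Δ cells, and the intervals of the libraries did not overlap in any of the 9. The split was thus nearly constant from class to class within a library and differed between the libraries.

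The same held for the pair of Rpl9 and Rpl9-ps6, an annotated pseudogene: 67.0% of the sum was on Rpl9-ps6 in control and 37.3% in Adipo Δ/Δ, and the intervals did not overlap in 9 of 9 classes. For Rpl35, the copy Gm2000 took 22.9% and 11.4% (9 of 9 classes), and for Rpl36a the copy Rpl36a-ps1 took 14.8% and 5.33% (8 of 9). In the other 3 pairs the splits lay closer together, and the intervals of the libraries overlapped in 9 of 9 classes. Rpl10 had 86.2% and 88.6% of its sum on Rpl10-ps3, Rps18 had 0.57% and 0.45% on Gm11361 and Rpl41 had 0.28% and 0.39% on Gm10076. Over all kept cells the intervals did not overlap for the Rpl10 pair (85.1% to 87.3% against 87.5% to 89.5%). Nor did they for the Rpl41 pair (0.24% to 0.32% against 0.35% to 0.45%). The share of Rpl10-ps3 was higher in Adipo Δ/Δ in each of the 9 classes. Most UMIs of the Rpl10 pair were thus credited to the copy, and the level given above for Rpl10 is that of the smaller share. The cause of the different splits was not tested, and with 1 library per condition the condition and the library cannot be told apart.

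**Figure D5:**
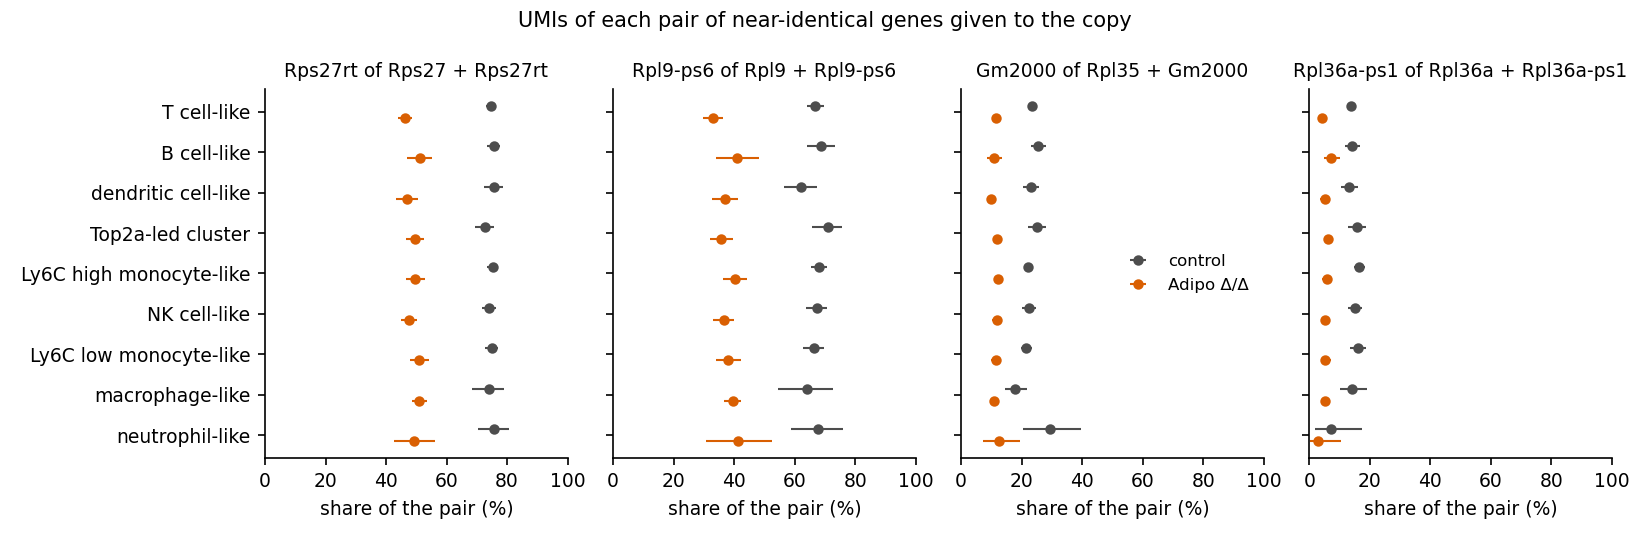
Percent of the UMIs of a member and its near-identical copy that were credited to the copy, by class and library, with 95% Clopper-Pearson intervals. For Rps27 and Rps27rt the control classes lie between 72.5% and 75.7% and the Adipo Δ/Δ classes between 46.4% and 51.1%.

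When each member was summed with its copy, the ratio between the libraries in macrophage-like cells was 0.91 for the Rps27 pair (0.80 to 1.04), in place of 1.71 for Rps27 and 0.62 for Rps27rt. It was 1.53 for the Rpl9 pair in place of 2.58, 1.62 for the Rpl35 pair in place of 1.76 and 1.44 for the Rpl36a pair in place of 1.59. Over all kept cells the sums gave 0.78 for the Rps27 pair (0.76 to 0.80), 1.04 for the Rpl9 pair, 1.17 for the Rpl35 pair and 1.14 for the Rpl36a pair. Within T cell-like cells the Rps27 pair gave 1.04. The recurring calls across classes thus fell on Rps27, Rps27rt and Rpl9, whose reads were divided with near-identical genes. In macrophage-like cells the Rpl9 pair still passed 1.5-fold after summing. The cause of these calls was not tested. Among the deviating members, summing with copies left 28 in place of 29, with Rps27 and Rps27rt then counted as 1 of 82.

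Genes that work with the ribosome were counted by lists, each with its share of UMIs in T cell-like over neutrophil-like cells, for which the members gave 13.8 and 9.12. The elongation factors, which carry tRNAs to the ribosome and move it along the mRNA, gave 12.9 in control and 7.35 in Adipo Δ/Δ. In T cell-like cells 5 of 7 were higher (6.90% of all genes), and in neutrophil-like cells 7 of 7 were lower (50.7%). Eef1a1 stood at 6544 and 7348 CPM in T cell-like and at 410 and 864 in neutrophil-like cells, and Eef1b2 at 2235 and 2336 against 146 and 212. Of the lists, the elongation factors came closest to the members in the control library.

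Other mRNAs with a known 5′ TOP motif gave 5.70 and 4.08, with 13 of 22 higher (6.90% of all genes) and 1 lower (Vim, an intermediate filament gene; 34.7%) in T cell-like cells and 21 of 22 lower in neutrophil-like cells (50.7%). Tpt1 stood at 12292 and 13556 CPM in T cell-like and 1222 and 1981 in neutrophil-like cells. Npm1, a chaperone of ribosome assembly in the nucleolus, stood at 1191 and 1168 against 23.5 and 49.3. Ribosome biogenesis factors gave 8.86 and 4.90. Of their 32 tested genes 6 were higher in T cell-like cells (6.90% of all genes) and 12 in NK cell-like cells (26.2%). Lower were 30 in neutrophil-like cells (50.7%), 11 in Ly6C high (15.0%) and 7 in Ly6C low monocyte-like cells (14.3%), with Ncl at 374 and 417 CPM in T cell-like against 52.5 and 98.6 in neutrophil-like cells.

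Initiation factors and mitochondrial ribosomal proteins had smaller ratios of summed UMIs. Initiation factors gave 2.21 and 1.88, with 2 of 29 higher (6.90% of all genes) and 3 lower (34.7%) in T cell-like cells and 25 of 29 lower in neutrophil-like cells (50.7%). Eif1, which helps to select the start codon, stood at 1061 and 1245 CPM in T cell-like cells and at 1240 and 1566 in neutrophil-like cells. The mitochondrial ribosome list gave 1.81 and 1.70, with 0 of 74 higher (6.90%) and 7 lower (34.7%) in T cell-like cells and 67 of 74 lower in neutrophil-like cells (50.7%). Gene by gene, the median log2 ratio of the mitochondrial list in neutrophil-like cells was −2.90 and −1.98 and that of the initiation factors −2.30 and −1.64, where the members had −3.27 and −2.32. In T cell-like cells the medians were −0.10 and −0.23 for the mitochondrial list and −0.03 and −0.17 for the initiation factors, where the members had 1.16 and 1.20. The lists thus departed from the members more in T cell-like than in neutrophil-like cells.

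Fau, whose product is cut from a ubiquitin-like fusion to give a small subunit protein but whose symbol is outside the rule, stood at 7757 and 7803 CPM in T cell-like and at 3540 and 4598 in neutrophil-like cells, above Rps9 in the latter. The ubiquitin fusion list gave 2.71 and 2.07. Regulators of the pathway (mTOR and Myc) gave 0.66 and 0.67, and in neutrophil-like cells 3 of 16 were higher (15.1% of all genes) and 5 lower (50.7%). Among these 3 was Eif4ebp1, a repressor of cap-dependent translation that mTOR switches off, at 226 and 203 CPM in neutrophil-like and 7.63 and 18.0 in T cell-like cells. Pyrimidine runs at the start were found in 9 of 15 genes of the 5′ TOP list, 7 of 29 of the biogenesis list, 5 of 24 initiation factors, 17 of 69 mitochondrial ribosomal proteins and 1 of 5 elongation factors. Eef1a1 and Eef1b2 are among the genes that stand on both the elongation factor list and the 5′ TOP list. The counts of these lists are thus not independent. Whether such runs go with the T to neutrophil ratio was not tested.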

How the data were processed

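Per the labels and the study's methods, the authors aligned reads to mm10 with Cell Ranger 4.0.0 and deposited raw UMI counts per gene and barcode for each library, with empty droplets already removed. Here barcodes needed 200 or more detected genes and no more than 10% mitochondrial UMIs. Members were then removed, and the libraries were integrated and clustered (Seurat 5.3.0, sctransform 0.4.2, 2000 features, 20 components, resolution 1.0, R 4.3.3). Clusters were named from fixed markers where at least 3 were detected in 10% of cells. UMIs were summed per library and class and divided by the total. With 1 library per condition no test was made: ratios carry 95% intervals (Clopper-Pearson, Poisson or conditional binomial; SciPy 1.17.1), which cover counting error only. Kept cells had a median of 3678 and 3942 UMIs, which limits values that rest on few cells. Genes needed 100 UMIs in each library for class comparisons, and 100 over both libraries within a class for library comparisons.

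The members and lists were chosen with earlier results of these data known. Named are the 5 highest and 5 lowest members, up to 10 deviating members per side, 5 per side in macrophage-like cells, all paralogs of a fixed list, and genes of the fixed lists. Scrublet (Scanpy 1.11.5) marked 7 and 5 kept cells as doublets, too few to count as having worked, so barcodes with markers of more than 1 class (110 control, 57 Adipo Δ/Δ) were left out together with them as an alternative (113 and 60 in all), and doublets otherwise stayed in. Scripts were tested on simulated data. Alternatives covered cell limits, clustering, doublets, thinning, thresholds and copies. Promoter sequences are RefSeq, GRCm38.p6. No protein sequences were used here. The values of some single members are not reported here.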

Additional observations from a re-analysis of the deposited data

Results flagged for a closer look

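Members were measurable outside the classes described above. In barcodes that failed the limits on genes or mitochondrial UMIs, members held 4.31% of UMIs in 318 control barcodes and 7.44% in 365 Adipo Δ/Δ barcodes, a ratio of 1.73 (1.70 to 1.75). In an unclassified cluster led by Col3a1 and Dcn, genes of fibroblasts, members held 4.82% in 38 control cells and 6.19% in 62 Adipo Δ/Δ cells, a ratio of 1.29 (1.22 to 1.36). In an unclassified cluster led by Mcpt4, Tpsb2 and Cpa3, genes of mast cells, they held 26.6% in 39 and 29.0% in 32 cells, a ratio of 1.09 (1.08 to 1.11). The remaining unclassified clusters were not higher in Adipo Δ/Δ: the ratio was 0.736 (21.8% in 29 and 16.1% in 157 cells) in one led by Rgs5, Mcpt4 and Cpa3, and 0.994 (24.7% and 24.5%, 35 cells each) in one led by Ccl1 and Cd7. The first 3 values were picked out because they lie outside the cells that the comparisons used and were higher in Adipo Δ/Δ beyond counting error. Their direction was thus fixed by the selection. The intervals cover counting error only.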

How the results depend on the processing

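No paired analysis was possible because each condition had 1 library and the labels give no replicate numbers. Alternatives added after seeing the data are the summing of copies, all those for the neutrophil ratio, those within the original classes, those without the lipid-associated cluster, and those for the neutrophil count and the ratios of the other classes. The cause of each change below was not tested. The macrophage ratio (1.15) reversed to 0.914 with a mitochondrial limit of 5% and to 0.974 with 2%, both with new clusters. It was 1.12 with at least 500 genes per cell, 1.14 with classes from all genes, 1.02 without integration, 1.14 as a mean over cells, 1.21 without doublets, 1.17 and 1.03 with limits of 5% and 2% within the original classes, and 1.05 without the lipid-associated cluster. The count of macrophage members past 1.5-fold (10) was 4 with either mitochondrial limit, 6 without integration, 26 at a fold of 25%, 4 as a share of member UMIs, 4 with the 2% limit within the original classes and 3 without the lipid-associated cluster.

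The neutrophil ratio (1.56) was 1.28 with the 2% limit, 1.30 with at least 500 genes, 1.30 without integration, 1.31 as a mean over cells, 1.31 thinned to 1000 UMIs per cell, 1.22 without doublets and 1.41 without neutrophil markers in the denominator. The T to neutrophil ratio in control (13.8) was 13.6 and 12.1 with limits of 5% and 2%, 12.7 with classes from all genes, 13.04 at resolution 2.0, 14.3 as a mean over cells, 14.0 thinned and 14.5 without doublets. In Adipo Δ/Δ (9.12) it was 7.55 with the 2% limit, 10.96 with at least 500 genes, 7.46 with classes from all genes, 7.63 at resolution 2.0, 11.2 without integration, 11.1 as a mean over cells, 9.33 without mitochondrial UMIs, 10.9 thinned and 12.2 without doublets. The number of deviating members (29) was 59 at a fold of 25% and within 1.5 times of 29 under the 11 other settings. Of 160 class shares under the alternatives, 121 moved beyond their counting interval. Depth limits values from few cells, above all the 13 control cells of the lipid-associated cluster.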
